A study of Mus musculus with 8 samples.

Results

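The 9 CXC chemokine genes *Cxcl1*, *Cxcl2*, *Cxcl5*, *Cxcl9*, *Cxcl10*, *Cxcl12*, *Cxcl14*, *Pf4* and *Ppbp* were taken by symbol from the 21859 genes with counts in mouse aorta. RNA-seq had been done on the aortas of 4 ApoE knockout mice (ApoE-/-) and 4 Wild Type mice (WT), all male, on a C57BL/6 background, 40 weeks old and fed a normal diet. The comparison addressed which genes differ between the aorta of atherosclerosis-prone animals and that of controls. The whole aorta was used, so each library can mix smooth muscle, endothelium, adventitia, surrounding fat and remaining blood, although the study's methods state that mice were perfused with saline, and each group stands for 1 age and 1 diet. In *ApoE-/-* mice the gene is disrupted in every cell of the body.

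Chemokines are small secreted proteins that guide leukocytes by binding receptors that couple to G proteins. In the CXC class the first pair of conserved cysteines is separated by a single residue. Members with the motif Glu-Leu-Arg just before these cysteines (ELR members) attract neutrophils through Cxcr2, whereas Cxcl9 and Cxcl10 attract activated T cells through Cxcr3 and Cxcl12 acts through Cxcr4. Pf4 and Ppbp are stored in platelet granules. In atherosclerosis this family is known for the recruitment of leukocytes to the vessel wall.

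The motif is shown first because it sorts the members into the groups by which they are described. Each line gives the coding strand, 5′ to 3′, of a principal transcript in GENCODE M21 on GRCm38, with the 3 codons before the first of the paired cysteines in capitals and the C-X-C codons in lower case.
Cxcl1: GAGCTGCGCtgtcagtgc
Cxcl2: GAACTGCGCtgtcaatgc
Cxcl5: GAGCTGCGTtgtgtttgc
Ppbp: GAACTGCGCtgcagatgt
Pf4: GATCTTAGCtgtgtgtgt
Cxcl9: AATGCACGAtgctcctgc
Cxcl10: ACGGTCCGCtgcaactgc
Cxcl12: AGCTACCGAtgcccctgc
Cxcl14: GGGTCCAAGtgtaagtgt
The capitals spell the ELR codons in *Cxcl1*, *Cxcl2*, *Cxcl5* and *Ppbp*, and in none of the other 5 members. The stretch lay in exon 2 at chr5:90891487-90891504 in *Cxcl1*, chr5:90904133-90904150 in *Cxcl2*, chr5:90759718-90759735 in *Cxcl5*, chr5:90769076-90769093 in *Ppbp* and chr5:90772935-90772952 in *Pf4*, all on the plus strand. On the minus strand it lay in exon 2 at chr5:92326842-92326859 in *Cxcl9* and chr5:92348181-92348198 in *Cxcl10*. It lay in exon 2 at chr6:117171499-117171516 on the plus strand in *Cxcl12*, and in *Cxcl14* it was split over exons 1 and 2 within chr13:56295915-56296110 on the minus strand.

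The genes themselves fall into a few places in the genome. *Cxcl5*, *Ppbp*, *Pf4*, *Cxcl1* and *Cxcl2* lie within 146.579 kb, at chr5:90759360-90905938, and *Cxcl9* and *Cxcl10* within 27.543 kb, at chr5:92321347-92348889. *Cxcl12* (chr6:117168535-117181367, plus strand) and *Cxcl14* (chr13:56288643-56296551, minus strand) stand alone. *Cxcl10* overlaps *Art3* on the opposite strand. The deposited counts are labelled as stranded and unique, so read pairs that fit several of the similar genes *Cxcl1*, *Cxcl2* and *Cxcl3* equally well were left out, and their counts are uncertain to that extent.

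Between 23240995 and 23940156 read pairs were counted on genes in *ApoE-/-* aortas and between 18375898 and 21664598 in WT aortas, without overlap. Levels are given as CPM, which are counts scaled to the library size after TMM normalization. *Apoe* had 14.6 to 36.3 CPM in the *ApoE-/-* libraries and 536 to 857 CPM in the WT libraries, so each library matched its label. Smooth muscle, endothelial and fibroblast markers were present in all 8 libraries, as in a vessel wall. *ApoE-/-* replicate 1 stood apart with a summed smooth muscle level of 4674 CPM, against 10382 to 19572 CPM in the other 7 libraries. *ApoE-/-* replicate 4 had the highest sums of macrophage and red cell markers.

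Of the 9 members, 8 passed the low-count filter and were tested with edgeR's quasi-likelihood test. *Cxcl2* was called higher in *ApoE-/-* aortas (adjusted p under 0.05 by the Benjamini-Hochberg method over all 15077 tested genes) and 0 members were called lower. That is 1 of 8, where 0.371% of all tested genes were called higher and 0.0929% lower, but *Cxcl2* passed the filter only through the group in which it was high, so this count supports nothing about the members, and 0 were called with no filter. At an unadjusted p under 0.05 edgeR gave 3 members higher (*Cxcl1*, *Cxcl2* and *Cxcl14*) and 0 lower, where 7.19% of tested genes were higher at that p. DESeq2, the tool the study names, called 3 of 9 members higher (*Cxcl1*, *Cxcl2* and *Cxcl5*) and 0 lower, against 2.84% and 1.45% of its tested genes. The same 3 members had CPM values that did not overlap between genotypes, 2 of them among the tested genes, of which 5.42% were higher without overlap. The median log2 fold change of the 8 tested members was 0.15, beside 0.05 over all tested genes. In whole aorta, more cells of a type and more RNA per cell cannot be told apart for any of these values.

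**Figure D1:**
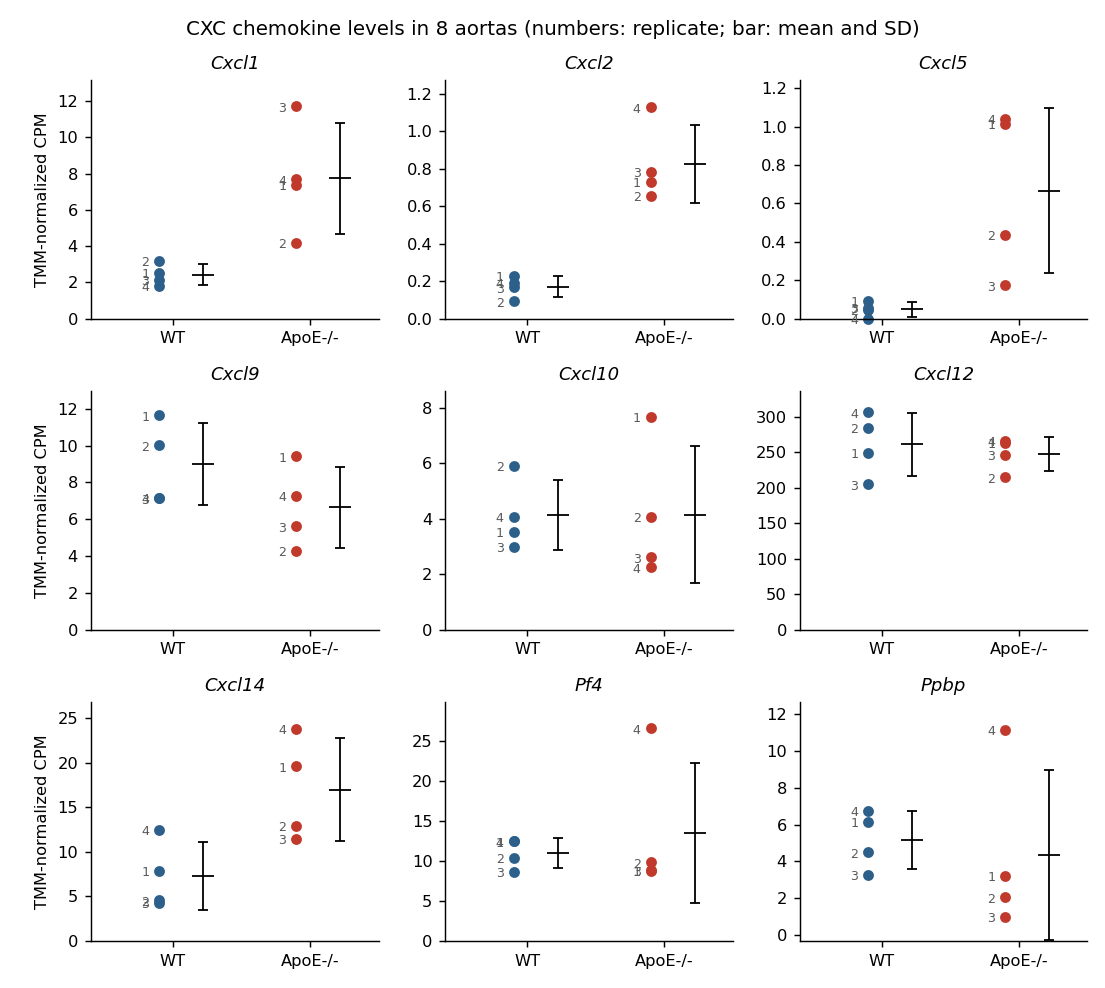
TMM-normalized CPM of each CXC chemokine in the 4 WT (blue) and 4 ApoE-/- (red) libraries, with the replicate number beside each point and the mean and SD (n = 4) as a bar, on axes that start at 0 except for Ppbp, whose SD bar runs below 0. The genotypes are separate for Cxcl1, Cxcl2 and Cxcl5 and overlap for the other 6 members, and ApoE-/- replicate 4 lies far above the rest for Pf4 and Ppbp.

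*Cxcl1* and *Cxcl2*, the neutrophil-attracting ligands that NF-kB induces in inflamed tissue, were both higher in every *ApoE-/-* library than in any WT library. *Cxcl1* had 7.38, 4.197, 11.7 and 7.68 CPM in *ApoE-/-* replicates 1 to 4 and 2.52, 3.18, 2.16 and 1.82 CPM in WT replicates 1 to 4. Replicate 3 of the *ApoE-/-* group was the highest and replicate 2 the closest to WT, with no overlap. The means were 7.74 ± 3.08 CPM and 2.42 ± 0.583 CPM (SD, n = 4 each), and the fitted ratio was 3.19 (95% interval 1.89 to 5.39). The log2 fold change of 1.67 (SE 0.33) missed the threshold in edgeR (adjusted p = 0.0683) and passed it in DESeq2 (1.67, adjusted p = 0.000229). Of the 8 edgeR fits without 1 library it passed in 1, without *ApoE-/-* replicate 1 (1.70, adjusted p = 0.0439), and in the other 7 the adjusted p was 0.0584 to 0.230.

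*Cxcl2* was much scarcer. Its CPM was 0.730, 0.656, 0.784 and 1.13 in *ApoE-/-* replicates 1 to 4, from 18, 15, 18 and 26 read pairs, and 0.229, 0.0936, 0.166 and 0.191 in WT replicates 1 to 4, from 5, 2, 3 and 4 read pairs. All 4 *ApoE-/-* values were high and close together and all 4 WT values low. The means were 0.824 ± 0.209 CPM and 0.170 ± 0.0572 CPM (SD, n = 4 each). edgeR gave a log2 fold change of 2.24 (SE 0.34, adjusted p = 0.0434), a ratio of 4.72 (95% interval 2.74 to 8.12), and DESeq2 gave 2.26 (adjusted p = 0.00289). The filter asks for about 0.445 CPM in 4 libraries, so *Cxcl2* was tested only through the *ApoE-/-* group, where it is high. Of the 8 fits in edgeR that left out 1 library, only the one without *ApoE-/-* replicate 1 kept the call (adjusted p = 0.0198), and in the others the adjusted p reached at most 0.171. DESeq2 kept it in all 8.

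*Cxcl5*, another neutrophil-attracting ligand, was too low for the filter. It had 25, 10, 4 and 24 read pairs in *ApoE-/-* replicates 1 to 4 and 2, 1, 1 and 0 in WT replicates 1 to 4. The 0 in WT replicate 4 allows a level of up to 0.143 CPM, taken as 3 counts. In CPM the *ApoE-/-* libraries had 1.01, 0.437, 0.174 and 1.04, and the highest WT library 0.0917. The groups did not overlap, although *ApoE-/-* replicate 3 came near the WT level. Summed over libraries and scaled to their sizes, the ratio was 13.8, with an exact 95% interval of 5.14 to 52.3 that covers counting error only. DESeq2 gave a log2 fold change of 3.76 (adjusted p = 0.00994), and edgeR without the filter 3.63 (SE 0.79, adjusted p = 0.0959). Leaving out 1 library at a time, DESeq2 called *Cxcl5* in 6 of 8 fits, and the call was lost without *ApoE-/-* replicate 4 (adjusted p = 0.0581) and without WT replicate 4 (adjusted p = 0.0587).

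The remaining ELR member, *Ppbp*, had another pattern. It encodes the precursor of platelet basic protein and had 3.20, 2.05, 1.00 and 11.1 CPM in *ApoE-/-* replicates 1 to 4 and 6.14, 4.49, 3.27 and 6.75 CPM in WT replicates 1 to 4. Replicates 1 to 3 of the *ApoE-/-* group lay below all WT libraries and replicate 4 above all of them. Between genotypes the log2 fold change was −0.25 (SE 0.67, 95% interval −1.80 to 1.30, edgeR adjusted p = 0.941), and −1.30 without *ApoE-/-* replicate 4, where the adjusted p was 0.271 in edgeR and 0.0607 in DESeq2.

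*Pf4*, platelet factor 4, is also expressed by tissue-resident macrophages. It had 8.76, 9.84, 8.84 and 26.6 CPM in *ApoE-/-* replicates 1 to 4 and 12.5, 10.4, 8.69 and 12.5 CPM in WT replicates 1 to 4. Replicate 4 of the *ApoE-/-* group was again far above the others, and the other 3 lay within the WT range. The log2 fold change of 0.29 (SE 0.38, 95% interval −0.59 to 1.18, edgeR adjusted p = 0.846) changed sign to −0.27 when that library was left out.

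In the library that was high for both, several blood and macrophage lists were high too. The sum of 5 red cell markers was 303 CPM in *ApoE-/-* replicate 4, against 33.4 to 171 CPM in the other *ApoE-/-* libraries and 124 to 241 CPM in WT libraries. Most of that sum was *Hbb-bs*, with 204 CPM in replicate 4, whereas *Hba-a2* had 1.13 CPM there, as low as in replicate 3 and below all other libraries. Of the 10 platelet markers 6 were tested, 3 of them with a positive log2 fold change, and their sum was 26.8 CPM in this library, the highest of 14.3 to 26.8 CPM in *ApoE-/-* and 15.6 to 20.9 CPM in WT libraries. The 7 markers of resident adventitial macrophages summed to 845 CPM there, against 248 to 415 CPM in the other *ApoE-/-* libraries and 321 to 377 CPM in WT. By name, *Tubb1*, the platelet tubulin, had 3.21 CPM there and at most 2.06 CPM elsewhere. The part of these cells in the *Pf4* and *Ppbp* values was not tested.

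**Figure D2:**
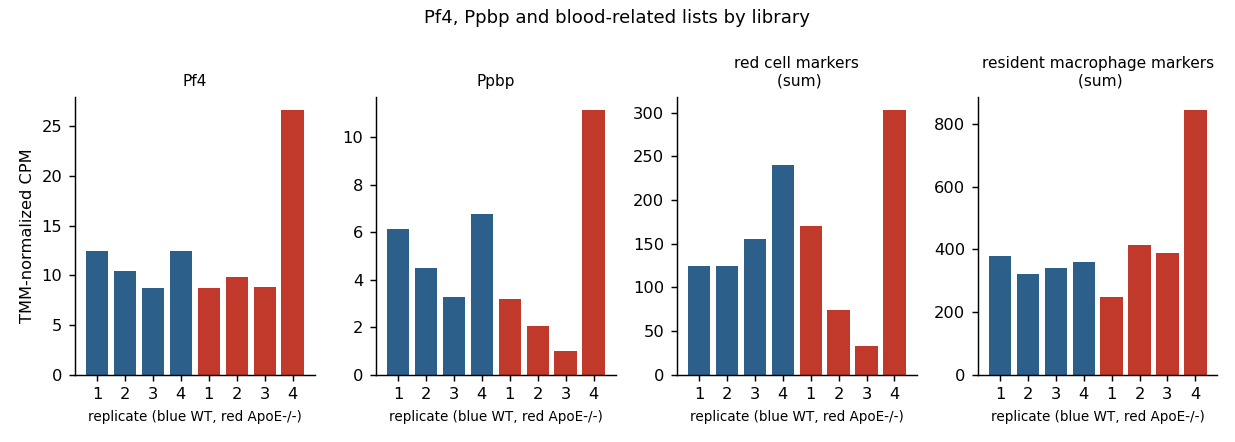
TMM-normalized CPM of Pf4 and Ppbp and the summed CPM of 5 red cell and 7 resident macrophage markers in each library, as bars from 0 (blue WT, red ApoE-/-, replicates 1 to 4). ApoE-/- replicate 4 is the highest bar in all 4 panels, at 26.6, 11.1, 303 and 845 CPM.

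The interferon-induced ligands of Cxcr3, *Cxcl9* and *Cxcl10*, overlapped between genotypes. *Cxcl9* had 9.41, 4.28, 5.62 and 7.29 CPM in *ApoE-/-* replicates 1 to 4 and 11.6, 10.01, 7.14 and 7.18 CPM in WT replicates 1 to 4. The lowest 2 libraries were *ApoE-/-* and the highest 2 WT, with the other 4 mixed. Its log2 fold change was −0.44 (SE 0.28, 95% interval −1.08 to 0.21, edgeR adjusted p = 0.67).

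*Cxcl10* had 7.67, 4.07, 2.61 and 2.26 CPM in *ApoE-/-* replicates 1 to 4 and 3.53, 5.90, 2.99 and 4.07 CPM in WT replicates 1 to 4. *ApoE-/-* libraries held both the highest and the lowest values. The fitted difference on the log2 scale was 0.01 (SE 0.42, 95% interval −0.94 to 0.97, edgeR adjusted p = 0.999) and −0.47 without *ApoE-/-* replicate 1, and its sign also turned with the choice of size factors. A difference of nearly 2-fold in either direction lies inside this interval.

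*Cxcl12*, which keeps leukocytes and progenitors in place through Cxcr4 and is made by stromal and endothelial cells, was the most abundant member and the least variable. It had 263, 215, 246 and 266 CPM in *ApoE-/-* replicates 1 to 4 and 249, 285, 205 and 307 CPM in WT replicates 1 to 4. The WT libraries spanned the whole range of the *ApoE-/-* libraries. The fitted ratio was 0.947 with a 95% interval of 0.742 to 1.21 (log2 fold change −0.08, SE 0.15, edgeR adjusted p = 0.908).

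*Cxcl14*, a ligand made by fibroblasts and adipose tissue that acts on monocytes and related cells, had 19.6, 12.9, 11.5 and 23.8 CPM in *ApoE-/-* replicates 1 to 4 and 7.88, 4.54, 4.26 and 12.5 CPM in WT replicates 1 to 4. Only WT replicate 4 reached into the *ApoE-/-* range, just above *ApoE-/-* replicate 3. The means were 16.9 ± 5.79 CPM and 7.29 ± 3.83 CPM (SD, n = 4 each). The log2 fold change of 1.21 (SE 0.40) missed the threshold in edgeR (adjusted p = 0.252) and in DESeq2 (adjusted p = 0.0632). Without WT replicate 4, DESeq2 called it (1.59, adjusted p = 0.00153), while edgeR called it in none of its 8 fits without 1 library, in which the adjusted p was 0.199 to 0.515. The 8 fibroblast markers, of which 7 had a positive and 1 a negative log2 fold change, summed to 3635 to 9079 CPM in *ApoE-/-* and 3354 to 3802 CPM in WT libraries, with the highest *ApoE-/-* sum in replicate 3, where *Cxcl14* was lowest in its group. The 7 adipocyte markers, of which 1 had a positive and 6 a negative log2 fold change (median −0.48), summed to 2713 to 11358 CPM and 5811 to 11564 CPM, with the highest sum in replicate 4 of each genotype, where *Cxcl14* was highest too, although single markers such as *Ucp1* and *Lep* peaked elsewhere in 1 genotype. Their part in the *Cxcl14* values was not tested.

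**Figure D3:**
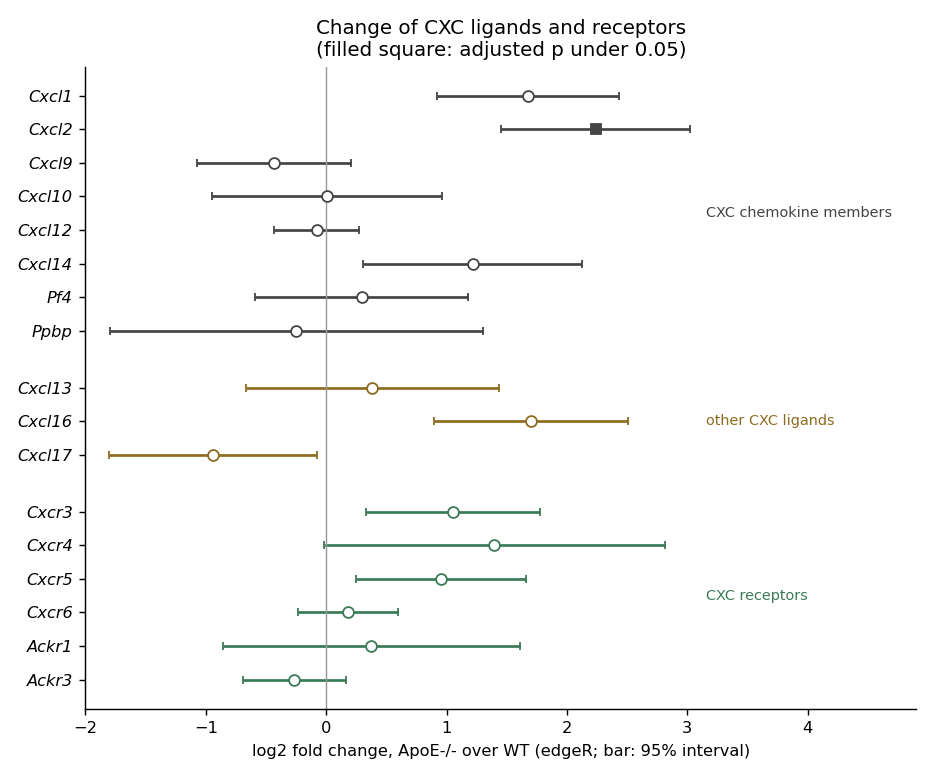
Log2 fold change of the tested CXC chemokines, other CXC ligands and CXC receptors, ApoE-/- over WT, from edgeR with 95% intervals (n = 4 per group, filled square for an adjusted p under 0.05). Cxcl2 at 2.24 is the 1 filled symbol, and the intervals of Cxcl9, Cxcl10, Cxcl12, Pf4 and Ppbp include 0.

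To compare levels between genes, CPM was divided by the kb of exon of each gene, over all its transcripts. In WT aortas the order was *Cxcl12* (32.0 ± 5.43 CPM per kb, SD, n = 4), *Pf4* (15.3 ± 2.53), *Ppbp* (4.77 ± 1.46), *Cxcl14* (3.99 ± 2.10), *Cxcl9* (2.98 ± 0.736), *Cxcl10* (1.83 ± 0.560), *Cxcl1* (1.29 ± 0.311), *Cxcl2* (0.0822 ± 0.0277) and *Cxcl5* (0.0260 ± 0.0202). The libraries of neighbours in this order did not overlap between *Cxcl12* and *Pf4*, between *Pf4* and *Ppbp* and between *Cxcl1* and *Cxcl2*. The other 5 neighbouring pairs overlapped. Per kb of the principal transcript alone, which is much shorter for *Cxcl12*, its mean was 83.5 CPM per kb in WT and 79.1 in *ApoE-/-* aortas, and *Cxcl9* and *Cxcl10* exchanged places in both genotypes.

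In *ApoE-/-* aortas *Cxcl12* and *Pf4* again came first, followed by *Cxcl14* with 9.28 ± 3.17 CPM per kb (SD, n = 4) and *Cxcl1* with 4.13 ± 1.64 CPM per kb. Again *Cxcl2* (0.399 ± 0.101 CPM per kb) and *Cxcl5* (0.358 ± 0.231 CPM per kb) were last. Neighbours that did not overlap were *Cxcl14* and *Cxcl1*, by a narrow margin, and *Cxcl10* and *Cxcl2*. Per kb of the principal transcript the mean of *Cxcl1* was 8.12 CPM per kb, near the 9.28 of *Cxcl14*, and overlap was not examined by that length. *Cxcl12* made up 46.4%, 47.9%, 50.8% and 32.1% of the summed level per kb of the 9 members in *ApoE-/-* replicates 1 to 4, and 47.1%, 54.7%, 52.8% and 51.3% in WT replicates 1 to 4. These shares depend on the length used, and by the principal transcript they were 50.6% to 66.5% in *ApoE-/-* and 65.8% to 71.3% in WT libraries. By both lengths the lowest share was in *ApoE-/-* replicate 4, the library with the high *Pf4* level.

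**Figure D4:**
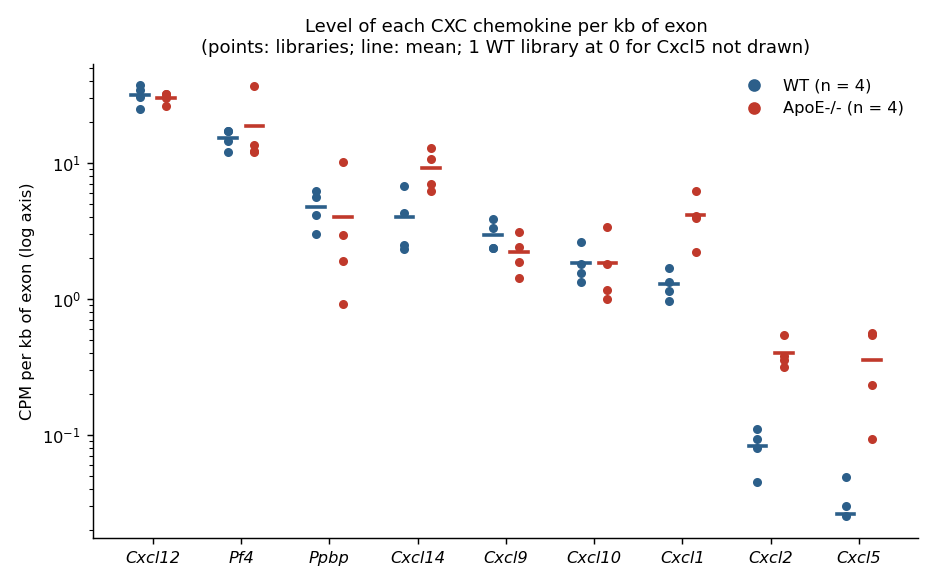
Level of each CXC chemokine as CPM per kb of exon on a log axis, in the order of the WT means, with a point per library and a line at the mean (blue WT, red ApoE-/-, n = 4 each, the WT library at 0 for Cxcl5 not drawn). The WT means run from 32.0 for Cxcl12 to 0.0260 for Cxcl5, and the gap between the genotypes is widest for the 2 lowest genes.

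The promoters of *Cxcl1* and *Cxcl2* are shown because these genes lie close together and neither overlapped between genotypes, and that of *Cxcl10* because it held the other motif. RefSeq windows (GRCm38.p6) from 250 bases before to 50 after the start site were found for 8 of 9 members. The windows were searched on both strands for an NF-kB motif (GGG, 2 bases of any kind, TTTCC) and for a motif of interferon-stimulated genes (GAAA, 2 bases of any kind, GAAA). No member's window held both in these spellings. Other spellings were not searched, so a window without a match may hold another form of either motif. Matches are in capitals in the stretches below, from 120 to 30 bases before the start for *Cxcl1* (chr5:90891125-90891215, plus strand) and *Cxcl2* (chr5:90903779-90903869, plus strand), and from 230 to 111 bases before it for *Cxcl10* (chr5:92349000-92349119, minus strand).
Cxcl1: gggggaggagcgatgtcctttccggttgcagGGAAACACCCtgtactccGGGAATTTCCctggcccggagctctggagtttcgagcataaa
Cxcl2: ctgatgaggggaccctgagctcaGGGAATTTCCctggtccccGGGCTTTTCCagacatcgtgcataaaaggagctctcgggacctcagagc
Cxcl10: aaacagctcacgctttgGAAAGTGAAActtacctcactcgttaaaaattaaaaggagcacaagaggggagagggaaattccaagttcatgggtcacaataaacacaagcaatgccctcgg
The NF-kB motif was in 2 of the 8 members' windows, with a pair of matches in each, beginning at −89 (minus strand) and −71 in *Cxcl1* and at −97 and −78 in *Cxcl2*. It was in 1.629% of all 32851 windows. The interferon motif was in the windows of *Cxcl10* at −213 and of *Cxcl14* at −172, and in 3.443% of all windows. A match describes the letters alone.

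The signals known to act on these promoters were examined through lists of their genes. Of 12 genes of NF-kB, TNF and IL-1 input 11 were tested and 10 had a positive log2 fold change (median 0.26). edgeR called 0 of them, with 5 higher and 0 lower at an unadjusted p under 0.05, where 7.19% of all tested genes were higher. Of the 5, *Tnf* passed the low-count filter only through the *ApoE-/-* group, where it is high, so the count is not read as a result about the list. DESeq2 called 2 higher, where 2.84% of its tested genes were. These were *Il1b*, the cytokine interleukin-1 beta (2.52 ± 0.623 CPM against 0.741 ± 0.353 CPM, SD, n = 4 each, DESeq2 adjusted p = 0.000706, edgeR adjusted p = 0.0753), and *Tnfaip3*, an NF-kB target that limits its signal (28.0 ± 9.86 CPM against 14.6 ± 1.78 CPM, DESeq2 adjusted p = 0.0217, edgeR adjusted p = 0.138). Without *ApoE-/-* replicate 1 edgeR called *Tnfaip3* (log2 fold change 1.10, adjusted p = 0.0274) and not *Il1b* (1.64, adjusted p = 0.0555). Over the 8 fits without 1 library DESeq2 called *Il1b* in 8 and *Tnfaip3* in 2. Its count for the list was 6 without *ApoE-/-* replicate 1, where *Il1a*, *Tnf*, *Nfkb2* and *Relb* were called too, 3 without replicate 2, where *Relb* was, and 1 without any other library. *Il17a*, a cytokine that induces *Cxcl1* and *Cxcl5*, had 0 counts in all 8 libraries.

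Of 10 genes of interferon-gamma input, which drives *Cxcl9* and *Cxcl10*, 9 were tested and 6 had a positive log2 fold change (median 0.15). edgeR called 0, with 2 higher and 0 lower at an unadjusted p under 0.05, and DESeq2 called the same 2 genes higher. Over all tested genes 7.19% were higher at that p in edgeR and 2.84% were called higher by DESeq2. They were *Ciita*, the activator of MHC class II genes (17.7 ± 1.55 CPM against 10.8 ± 2.43 CPM, SD, n = 4 each, DESeq2 adjusted p = 0.00964, edgeR adjusted p = 0.113), and *Ifngr2*, a chain of the interferon-gamma receptor (56.0 ± 6.62 CPM against 39.5 ± 4.76 CPM, DESeq2 adjusted p = 0.0413, edgeR adjusted p = 0.136). Without *ApoE-/-* replicate 1 edgeR called *Ifngr2* (log2 fold change 0.59, adjusted p = 0.0322) and not *Ciita* (0.70, adjusted p = 0.0857). Over the 8 fits without 1 library DESeq2 called *Ciita* in 4 and *Ifngr2* in 1, and its count for the list was 0 to 2. *Ifng* itself had at most 3 counts in any library.

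Of the other CXC ligands, 5 of 6 were in the files and 3 were tested. *Cxcl16*, a membrane-bound ligand of Cxcr6 that also binds oxidized lipoprotein, had 12.1, 24.3, 35.1 and 39.3 CPM in *ApoE-/-* replicates 1 to 4 and 9.26, 10.4, 7.42 and 6.98 CPM in WT replicates 1 to 4. The genotypes did not overlap, and *ApoE-/-* replicate 1 was the nearest to WT. Its log2 fold change of 1.70 (SE 0.35) passed in DESeq2 (adjusted p = 0.000319) and not in edgeR (adjusted p = 0.0756), which called it without *ApoE-/-* replicate 1 (1.95, adjusted p = 0.00621). *Cxcl13*, which draws B cells to lymphoid follicles through Cxcr5, had 8.19 to 28.4 CPM and 7.10 to 19.4 CPM, a log2 difference of 0.38 with an SE of 0.46 (edgeR adjusted p = 0.831) that went to 0.0069 in edgeR and −0.020 in DESeq2 without *ApoE-/-* replicate 4, its highest library. *Cxcl17* had 0.260 to 0.612 CPM and 0.596 to 1.29 CPM (−0.94, SE 0.38, edgeR adjusted p = 0.378). The closest relative of *Cxcl2*, *Cxcl3*, had 1, 3, 1 and 5 counts in *ApoE-/-* and 0, 0, 0 and 1 in WT libraries, and *Cxcl15* at most 1 count in any library, too few for a test with edgeR.

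No receptor passed a test with all 8 libraries: of 8 genes 6 were tested, edgeR and DESeq2 called 0, and at an unadjusted p under 0.05 edgeR had 2 higher and 0 lower. Over all tested genes 7.19% were higher at that p. *Cxcr2*, the receptor of the ELR members on neutrophils, had 0.219 to 0.868 CPM in *ApoE-/-* and 0.0468 to 0.229 CPM in WT libraries (DESeq2 log2 fold change 1.82, adjusted p = 0.246), and *Cxcr1* had at most 10 counts in a library. *Cxcr3*, the receptor of Cxcl9 and Cxcl10, had 1.06 ± 0.295 CPM and 0.506 ± 0.145 CPM (SD, n = 4 each), without overlap (log2 fold change 1.05, SE 0.31, edgeR adjusted p = 0.199). Of all tested genes 5.42% were higher without overlap. In WT replicates 2 and 3 *Cxcr3* lay under the filter's level of about 0.445 CPM, so its test also rested on the *ApoE-/-* group. *Cxcr4*, the receptor of Cxcl12, had 7.26 to 58.8 CPM, highest in *ApoE-/-* replicate 1, and 4.82 to 12.6 CPM (1.39, SE 0.62, edgeR adjusted p = 0.451), and without that replicate its log2 fold change was 0.54 (edgeR adjusted p = 0.531). *Ackr3*, which scavenges Cxcl12, had 41.3 to 65.0 CPM and 47.8 to 75.0 CPM (−0.27, SE 0.19, edgeR adjusted p = 0.715). *Cxcr5* (0.694 to 1.66 CPM and 0.554 to 0.779 CPM), *Cxcr6* (5.80 to 8.75 CPM and 5.85 to 7.53 CPM) and the scavenging receptor *Ackr1* (3.19 to 18.05 CPM and 4.95 to 7.67 CPM) overlapped between genotypes. The log2 fold change of *Ackr1* was 0.37 (edgeR adjusted p = 0.862) with *ApoE-/-* replicate 1, its highest library, and −0.48 (edgeR adjusted p = 0.37) without it. In fits without 1 library, DESeq2 called *Cxcr4* without *ApoE-/-* replicate 2 (adjusted p = 0.0391) and *Cxcr5* without *ApoE-/-* replicate 4 (adjusted p = 0.0462).

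Neutrophil and macrophage markers are given beside *Cxcl1*, *Cxcl2* and *Cxcl5*. Of 11 neutrophil markers 3 were tested and 2 had a positive log2 fold change. *S100a9*, 1 of the 3, passed the low-count filter only through the *ApoE-/-* group, where it is high. edgeR called *Csf3r*, the G-CSF receptor, higher (6.58 ± 1.54 CPM against 1.67 ± 0.412 CPM, SD, n = 4 each, log2 fold change 1.97, adjusted p = 0.0379), and DESeq2 called *Csf3r*, *S100a8*, *S100a9* and *Mmp8*. The granule proteins *Elane* (−0.44 in edgeR), *Ltf* (−0.47 in DESeq2) and *Camp* (−0.23 in DESeq2) had negative log2 fold changes and were not called, while *Ngp*, also a granule protein and not called, had a positive one (1.26 in DESeq2). All 11 summed to 8.79 to 19.9 CPM in *ApoE-/-* and 3.71 to 5.13 CPM in WT libraries. RNA of *Ly6g*, a surface marker of neutrophils, and of *Mpo*, a granule protein, was under 0.1 CPM in all 8 libraries. All 8 macrophage markers had a positive log2 fold change (median 1.74) and did not overlap between genotypes, with a sum of 418 to 1905 CPM against 222 to 332 CPM. edgeR called 1 of them, the Fc receptor *Fcgr1* (log2 fold change 2.32, adjusted p = 0.0355), and DESeq2 7. Of the edgeR fits without 1 library, only that without *ApoE-/-* replicate 1 called *Fcgr1* or *Csf3r*. DESeq2 called both in all 8 such fits and *S100a9* as well, *S100a8* in 3 and *Mmp8* in 2. The part of these cells in the *Cxcl1*, *Cxcl2*, *Cxcl5* and *Cxcl16* values was not tested.

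The 6 endothelial markers, from cells that release several of these ligands when activated, all had a negative log2 fold change (median −0.34). edgeR called 0, with 0 higher and 3 lower at an unadjusted p under 0.05, and DESeq2 called 2 lower. Their sum was 1508 to 2378 CPM in *ApoE-/-* and 2145 to 2674 CPM in WT libraries. Of 6 smooth muscle markers 1 had a positive log2 fold change (median −0.14) and neither tool called any, with 0 in either direction at an unadjusted p under 0.05.

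**Figure D5:**
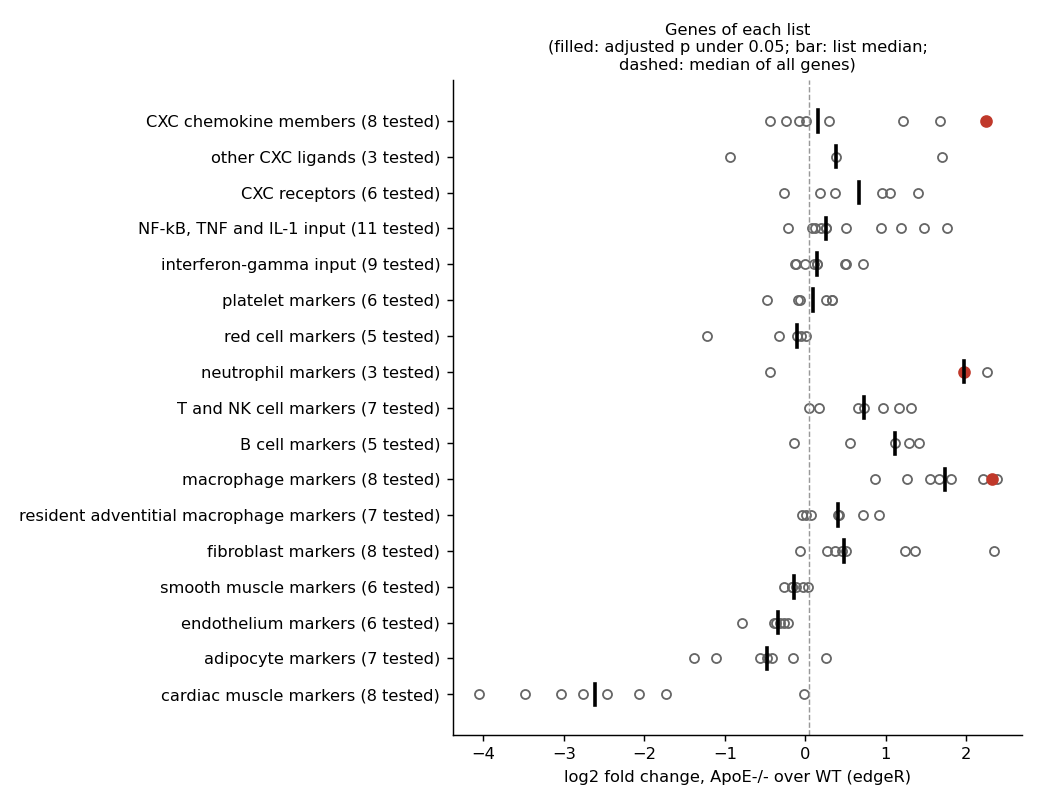
Log2 fold change, ApoE-/- over WT, of each tested gene in the ligand, receptor, signal and cell marker lists (open circles, filled where the edgeR adjusted p was under 0.05), with the list median as a bar and the median of all 15077 tested genes, 0.05, as a dashed line. The medians run from 1.97 for neutrophil markers (3 tested) to −2.61 for cardiac muscle markers (8 tested), with 0.15 for the CXC chemokines. Of 11 neutrophil markers only 3 passed the low-count filter, S100a9 only through the ApoE-/- group, so that median rests on few genes.

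As a description, the 3 tested genes with the most similar profile over the 8 libraries were found for each tested member, by the root mean square difference of log2 CPM after each gene was centred on its mean. For *Cxcl1* they included *Fat3* and *P4ha3* (0.187 each), and for *Cxcl2* *Pilra* and *Pik3ap1* (0.230 and 0.247), where *Pik3ap1* is a signalling gene of myeloid and B cells. For *Pf4* they were *Cd209f*, *Alox5* and *Rgs18* (0.122 to 0.165), and for *Ppbp* *Eci3*, *Tubb1* and *Elane* (0.216 to 0.339), where *Tubb1* belongs to platelets. For *Cxcl12* they were *Riox1*, *Oaf* and *Tmem86a* (0.0695 to 0.0943), and for *Cxcl14* *Trim30b*, *Klrd1* and *Spon2* (0.293 to 0.322). *Cxcl9* came next to *Car7*, *Rasd1* and *Epor* (0.145 to 0.149) and *Cxcl10* next to *Trpc4*, *Chadl* and *Kank4* (0.171 to 0.210). These differences grow with the spread of the member itself, whose SD of log2 CPM was 0.18 for *Cxcl12* and 0.98 for *Ppbp*, so they are not ranked between members.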

How the data were processed

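Libraries of ribodepleted, stranded total RNA were made from whole aortas, 1 per mouse. For each library the authors deposited the raw count of read pairs on every gene, neither normalized nor pooled. The submitters' processing notes name TopHat2, HTSeq and GRCm38 (mm10), and versions and annotation are not given in the sources used here. Of 21859 gene identifiers, 21817 were found in GENCODE M21 (GRCm38) once version suffixes were dropped, and its coordinates are given. Pairs assigned to no gene were left out of library sizes. They were 50.1% to 54.7% of all pairs in *ApoE-/-* and 56.4% to 58.0% in WT libraries, and pairs on genes were 32.3% to 35.6% and 27.9% to 30.2%. Neither share overlapped between genotypes, and its part in the results was not tested.

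Counts were analysed in R 4.3.3 with edgeR 4.0.16 (filterByExpr, TMM factors, robust quasi-likelihood F test, genotype as the only factor). P-values were two-sided and adjusted over 15077 genes. No label ties the 8 samples to separate litters or extraction days, so p-values measure the spread between these samples. DESeq2 1.42.0, RLE factors, other filters, leaving out each library, estimation that was not robust and a block for the replicate number were alternatives. Intervals and floors from counts cover counting error only. Scripts were tested on simulated data.

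The members and gene lists were chosen with earlier results of these data known. All 9 members are named, with, among other CXC ligands, receptors and signal genes, those past an adjusted p of 0.05 in edgeR or DESeq2 and each ligand or receptor by its range. Other signal genes and markers named, such as *Il17a*, *Ifng*, *Tubb1* and the called markers, were chosen after their values were seen. *Cxcl11* was not analysed here, and a few genes that the rule names are not reported here.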

Additional observations from a re-analysis of the deposited data

Results flagged for a closer look

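The values of members, other ligands, receptors and marker sums were examined for a library far from the other 3 of its genotype, by the gap to the nearest library as a share of the group's range (above Dixon's 95% critical value for 4 libraries). Of 64 groups 5 stood out, and chance alone gives about 1 in 20, or 3.2. The only member among them was *Pf4*, with 26.6 CPM in *ApoE-/-* replicate 4 and 9.84 CPM in the nearest library (share 0.940). *Ackr1* had 18.05 CPM in *ApoE-/-* replicate 1 and 5.66 CPM in the nearest (0.834). *Cxcr6* had 7.53 CPM in WT replicate 3 and 6.03 CPM in the nearest (0.893). *Cxcr1* had 0 CPM in WT replicate 3 and 0.0458 CPM, a single count, in the nearest (0.958). The summed cardiac muscle markers were 159 CPM in *ApoE-/-* replicate 4 and 334 CPM in the nearest (0.961). Most of that sum was *Ryr2* (123 CPM in replicate 4 and 212 to 311 CPM in the other *ApoE-/-* libraries), and without it replicate 4 had 36.2 CPM, inside the range of 23.6 to 129 CPM of the others.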

How the results depend on the processing

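Genes called numbered 70 in edgeR, 721 in DESeq2 and 2 with the replicate block, and without 1 library 0 to 593 in edgeR and 427 to 1548 in DESeq2, most in both without *ApoE-/-* replicate 1. Members called numbered 1 in edgeR, 3 in DESeq2, 0 without the low-count filter, 0 with a mean of at least 1 CPM (which removes *Cxcl2*) and 0 with the block, and without 1 library 0 to 2 in edgeR and 2 to 3 in DESeq2. DESeq2 called 1 other ligand and 2 genes of each signal list, and edgeR 0 to 1 of each without 1 library, the 1 only without *ApoE-/-* replicate 1. *Cxcl1* had a log2 fold change of 1.67 in DESeq2, 1.62 with the block (adjusted p = 0.2199), 1.40 to 1.88 in edgeR and 1.39 to 1.87 in DESeq2 without 1 library. *Cxcl2* lost its call with no filter (2.23, adjusted p = 0.0547) and with the block (2.24, adjusted p = 0.140), and spanned 2.04 to 2.42 and 2.06 to 2.45. *Cxcl5* had 3.76 in DESeq2, 3.25 to 4.11 in edgeR with no filter and 3.34 to 4.30 in DESeq2 without 1 library. *Cxcl10* turned negative in DESeq2 (−0.0089), with RLE factors (−0.0068) and with the block (−0.12), and spanned −0.47 to 0.23 and −0.48 to 0.22. Other ranges without 1 library were −0.65 to −0.27 and −0.66 to −0.29 for *Cxcl9*, −0.18 to 0.0068 and −0.19 to −0.0057 for *Cxcl12*, 1.01 to 1.60 and 0.98 to 1.59 for *Cxcl14*, −0.27 to 0.45 and −0.29 to 0.45 for *Pf4*, and −1.30 to 0.082 and −1.33 to 0.070 for *Ppbp*. The cause of these changes was not tested, other than that filters alter the genes tested and a library left out alters the samples. Fits in DESeq2 or with no filter that left out a library, values by principal transcript and sums without *Ryr2* were chosen after seeing the data. Same-numbered mice deviated together for replicates 3 and 4 and not for 1 and 2 (r across genes of 0.0431, −0.447, 0.461 and 0.230), so not every pair did and the numbers were not taken as a pairing. The members with both group means under 1 CPM, *Cxcl2* and *Cxcl5*, rest on few read pairs, at most 26 in a library.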

Other observations

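Lymphocyte markers, from the cells that carry Cxcr3 and Cxcr5, had positive log2 fold changes in 7 of 7 tested T and NK cell genes (median 0.73) and in 4 of 5 B cell genes (median 1.12). edgeR and DESeq2 called 0 of either list, and at an unadjusted p under 0.05 edgeR had 3 and 2 higher and 0 lower. Over all tested genes 7.19% were higher at that p. *Nkg7*, 1 of the 3, passed the low-count filter only through the *ApoE-/-* group. The T and NK cell markers summed to 5.55 to 12.2 CPM in *ApoE-/-* and 2.93 to 6.10 CPM in WT libraries, and the B cell markers to 8.37 to 16.95 CPM and 7.70 to 9.85 CPM. *Cxcl9* and *Cxcl10*, which attract T cells, had log2 fold changes of −0.44 and 0.01 in the same libraries.

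Of 5 red cell markers 1 had a positive log2 fold change (median −0.11), and edgeR and DESeq2 called 0, with 0 at an unadjusted p under 0.05. All 8 cardiac muscle markers had a negative log2 fold change (median −2.61), with a sum of 159 to 341 CPM in *ApoE-/-* and 414 to 716 CPM in WT libraries. DESeq2 called 5 of them lower and edgeR 0, with 7 lower at an unadjusted p under 0.05. The exception, *Ryr2*, had a log2 fold change of −0.016 and made up most of the sum in *ApoE-/-* libraries.

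Ratios within a library do not depend on its size factor. After the values were seen, *Pf4* over *Ppbp* was computed and was 2.73, 4.79, 8.83 and 2.39 in *ApoE-/-* replicates 1 to 4 and 2.03, 2.32, 2.66 and 1.85 in WT replicates 1 to 4. *ApoE-/-* replicate 4, with the highest level of both genes, had a ratio inside the WT range, and replicates 1 to 3 lay above it. The 2-sided exact permutation test over 70 assignments gave p = 0.0571, where the smallest possible is 0.0286. *Cxcl10* over *Cxcl9* was 0.310 to 0.949 in *ApoE-/-* and 0.303 to 0.589 in WT libraries (exact permutation test, p = 0.429).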
